A study of Mus musculus with 6 samples.

Results

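The genes of cholesterol and fatty acid synthesis were compared between a pair of mouse hypothalamic cell lines. The members were 35 genes chosen by name: 18 enzymes of sterol synthesis, 10 enzymes of fatty acid synthesis, elongation and desaturation, and 7 genes that regulate these pathways or move cholesterol. All probe sets that the platform annotation names for 1 of these genes alone were used, which gave 67 probe sets for 33 genes among 12393 genes measured in all. The 33 were 17 sterol enzymes, 10 fatty acid enzymes and 6 regulators or transporters. Of the 35, the thiolase gene Acat2 and the sterol sensor gene Insig1 were left out for want of a probe set of their own in the annotation. RNA of 6 cultures was hybridised, 3 plates of A_212, a line from adult hypothalamus, and 3 of N_46, a line from embryonic hypothalamus. Both lines are labelled as expressing Npy and were immortalised by overexpressing the SV40 T-antigen, and all plates were grown in DMEM with 5% fetal bovine serum to 70% confluence. No drug, lipid-depleted serum or other treatment is named for any plate. With 1 line per age, the effect of age and that of the individual line cannot be told apart. The labels do not tie the plates to separate derivations, and p-values measure the spread between plates, which may be technical.

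Cells make cholesterol from acetyl-CoA through mevalonate, the isoprenoid diphosphates, squalene and lanosterol, and they make fatty acids from the same acetyl-CoA through malonyl-CoA. Both pathways are controlled by sterol regulatory element-binding proteins (SREBPs), transcription factors held in the endoplasmic reticulum by the escort protein Scap and the Insig proteins while membrane sterol is plentiful. When sterol falls, Scap carries the SREBPs to the Golgi, where they are cleaved, and the freed factors raise transcription of the enzymes together. Cells also take cholesterol from the lipoproteins of serum, and the exporter Abca1, a target of the liver X receptors, removes it when it is in excess.

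The deposited log2 values were centred, probe set by probe set, on the median of all 6 arrays, which leaves differences between arrays and no level. Whether a gene was expressed at all, or more than another gene, cannot be read from them. No source used here states the base of the log, and folds rest on taking it as 2. A gene's value is the mean of its probe sets, and a difference is N_46 minus A_212, so a negative difference means higher in A_212. Each is given ± its standard error from limma (n = 3 arrays per line), and a gene is called when its adjusted p is under 0.05 (Benjamini-Hochberg over all 12393 genes). In the N_46 line, array 1 stood apart from arrays 2 and 3 for most of these genes, so a difference that it moved by over 1.5 times is given with and without it. Over all genes it stood apart less. There it correlated with the other N_46 arrays at r = 0.82 and 0.83 (those at 0.92 with each other). Over the members these values were 0.18, 0.21 and 0.88. The A_212 arrays correlated among themselves at 0.80 to 0.86 over all genes. N_46 array 1 was the lowest of its line for 47.5% of all genes, against 27.7% and 24.9% for arrays 2 and 3. It was the lowest by at least 0.2 for 7.46%, against 1.48% and 1.01%. The number of arrays limits the precision.

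Of the 33 genes, 13 were called, and all 13 were higher in A_212. They were 5 of 17 sterol enzymes, 5 of 10 fatty acid enzymes and 3 of 6 regulators and transporters. Over all genes, 39.2% were called, 18.3% as higher in A_212 and 20.9% as higher in N_46, so the share of members called, 39.4%, was that of the array as a whole. A negative difference was found for 28 of the 33, against 39.0% of all genes. The median difference was -0.31 for the sterol enzymes, -0.27 for the fatty acid enzymes and -0.29 for the regulators and transporters, against 0.06 over all genes. Differences were small: the most negative was -0.84 for Abca1, a 1.79-fold difference, the most positive was 0.24 for Cyp51, and 0 members reached a called log2 difference of 1. A called difference of at least 0.5 in size was found for 6 members (Lss, Sc5d, Scd1, Fads1, Stard4 and Abca1), and for 16.6% of all genes. The arrays of the lines did not overlap for 15 members, all with A_212 above, whereas over all genes 51.1% did not overlap, 22.2% with A_212 above and 28.9% with N_46 above. Without N_46 array 1, 12 members were called, 11 higher in A_212 and 1 (Cyp51) higher in N_46. That is 36.4% of the members, beside 37.6% of all genes in the same refit. Of the 33 differences 21 were then negative (63.6%), beside 38.4% of all genes.

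**Figure D1:**
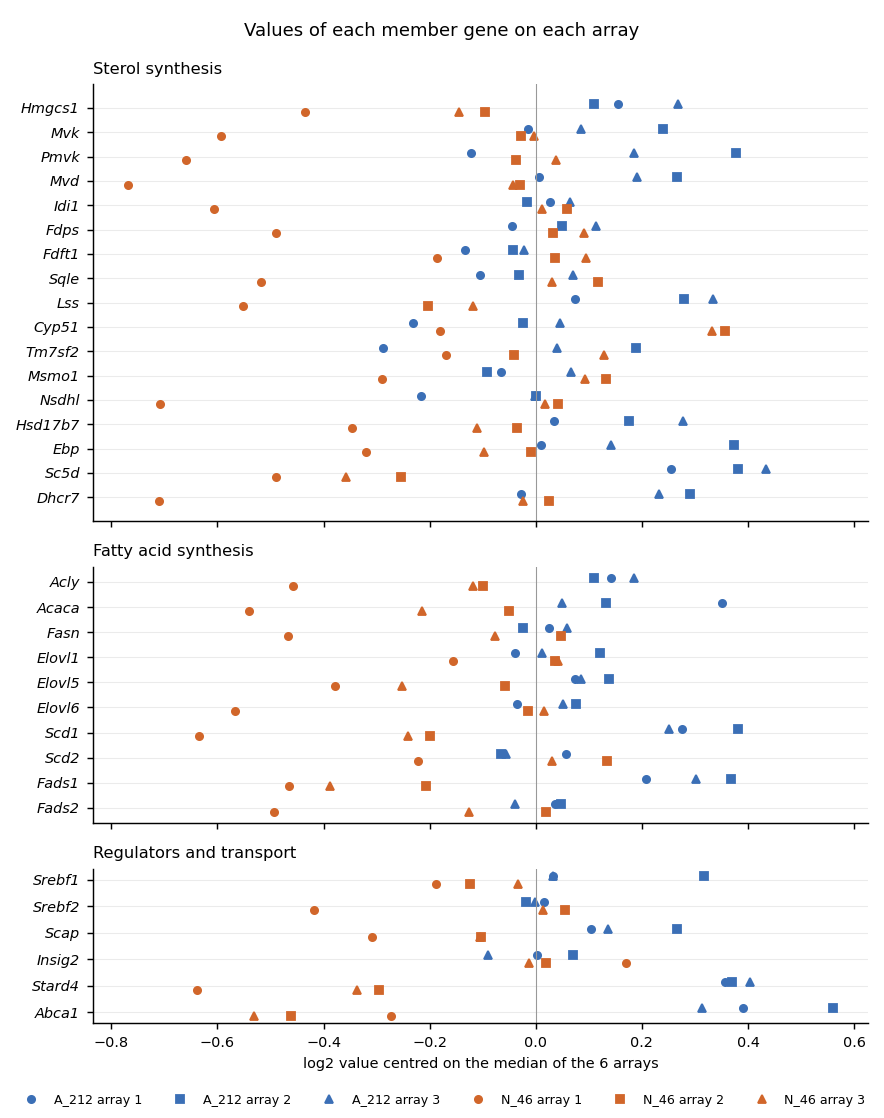
Centred log2 value (x axis) of each measured member (rows, by pathway) on each of the 6 arrays, with A_212 in blue and N_46 in orange and a marker shape per array number. N_46 array 1 (orange circles) is the lowest N_46 array for 31 of 33 genes, and for genes such as Sc5d, Fads1, Stard4 and Abca1 all 3 N_46 arrays lie below all 3 A_212 arrays.

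The first steps of the sterol pathway leaned towards A_212, and 1 of 6 passed the test. Hmgcs1, which condenses acetyl-CoA units into HMG-CoA, had values of 0.15, 0.11 and 0.27 on the A_212 arrays 1 to 3 and of -0.44, -0.10 and -0.14 on the N_46 arrays 1 to 3. The lines did not overlap, and the difference was -0.40 ± 0.10 (adjusted p = 0.00724), or -0.30 (adjusted p = 0.0174) without N_46 array 1. All 4 of its probe sets were called in the same direction, at -0.47 to -0.34. The mevalonate diphosphate decarboxylase gene Mvd had a difference of the same size but did not pass. Its values were 0.0058, 0.27 and 0.19 in A_212 and -0.77, -0.03 and -0.04 in N_46. The difference was -0.43 ± 0.17 (95% interval -0.82 to -0.05, adjusted p = 0.0707) on all arrays and -0.19 (adjusted p = 0.143) without N_46 array 1, while it passed without N_46 array 2 (adjusted p = 0.0305) or 3 (adjusted p = 0.0336). With array 1 of both lines left out it also passed, at -0.26 (adjusted p = 0.0413).

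The other 4 enzymes between mevalonate and farnesyl diphosphate showed the same shape. The kinase genes Mvk and Pmvk differed by -0.31 ± 0.14 (95% interval -0.63 to 0.01) and -0.37 ± 0.18 (-0.76 to 0.03), with adjusted p-values of 0.116 and 0.132. Without N_46 array 1 they stood at -0.12 and -0.15. Idi1, which interconverts the C5 isoprenoid building blocks, had A_212 values of 0.03, -0.02 and 0.06 against -0.61, 0.06 and 0.01 in N_46. Apart from N_46 array 1, its arrays lay between -0.02 and 0.06, and the difference of -0.20 (95% interval -0.54 to 0.13) became 0.0092 without that array. Farnesyl diphosphate synthase (Fdps), whose product is the branch point of sterols and other isoprenoids, had a difference of -0.16 (-0.46 to 0.14) that became 0.02 without that array. Its probe sets disagreed, at -0.41 and 0.08.

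At the entry to sterols proper, Lss differed and its neighbours did not pass. Squalene synthase (Fdft1) had a difference of 0.05 (95% interval -0.15 to 0.24, adjusted p = 0.694), with 2 probe sets on either side of 0, and was at 0.13 without N_46 array 1. Squalene epoxidase (Sqle), a rate-controlling oxygen-dependent step, had values of -0.10, -0.03 and 0.07 in A_212 and -0.52, 0.12 and 0.03 in N_46, a difference of -0.10 (-0.42 to 0.22, adjusted p = 0.612). Its sign turned without N_46 array 1, to 0.10. Lanosterol synthase (Lss), which closes the sterol rings, had 0.07, 0.28 and 0.33 in A_212 and -0.55, -0.20 and -0.12 in N_46. All N_46 arrays were below all A_212 arrays, and the difference was -0.52 ± 0.12, a 1.43-fold difference (adjusted p = 0.00477), or -0.39 without N_46 array 1. Of its 3 probe sets 1 was called, at -0.94, and the others stood at -0.43 and -0.19.

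Among the 8 enzymes that turn lanosterol into cholesterol, 3 were higher in A_212. The largest difference of any sterol enzyme was that of Sc5d, the sterol desaturase of a late step, at -0.72 ± 0.08 (adjusted p = 6.49e-05), a 1.65-fold difference. Its values were 0.25, 0.38 and 0.43 in A_212 and -0.49, -0.25 and -0.36 in N_46. The lines were far apart on every array, both probe sets were called (-0.90 and -0.55), and the difference was -0.66 without N_46 array 1. Hsd17b7, a ketosteroid reductase of the demethylation steps, differed by -0.33 ± 0.10 (adjusted p = 0.0222). Of its 2 probe sets 1 was called, at -0.42, and the other stood at -0.23. The sterol isomerase gene Ebp differed by -0.32 ± 0.11 (adjusted p = 0.0414). Both calls were lost in some refits on 5 arrays. Hsd17b7 stood at -0.32 (adjusted p = 0.0621), -0.27 (0.0733) and -0.24 (0.0711) without A_212 array 2, A_212 array 3 and N_46 array 1. Ebp stood at -0.22 (0.154), -0.33 (0.0749) and -0.23 (0.135) without those arrays and at -0.34 (0.0672) without N_46 array 3, so in part of these refits the call ended while the difference was about as large.

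Of the other 5 late enzymes, Dhcr7 leaned to A_212 and Cyp51 to N_46. Dhcr7, the reductase of the last step, had values of -0.03, 0.29 and 0.23 in A_212 and -0.71, 0.02 and -0.02 in N_46, with a difference of -0.40 (95% interval -0.79 to -0.02, adjusted p = 0.0924). It stood at -0.17 without N_46 array 1, and it passed without N_46 array 2 (adjusted p = 0.0367) and, at -0.26, with array 1 of both lines left out (adjusted p = 0.043). Cyp51, the lanosterol demethylase, ran the other way, with -0.23, -0.02 and 0.04 in A_212 and -0.18, 0.36 and 0.33 in N_46. Its difference was 0.24 ± 0.14 (-0.07 to 0.54, adjusted p = 0.2), and without N_46 array 1 it was 0.41 and called as higher in N_46 (adjusted p = 0.00769). Its probe sets disagreed in sign, at -0.20, 0.39 and 0.52, of which the last was called. Tm7sf2 (-0.0080, interval -0.28 to 0.26), Msmo1 (0.0089, -0.24 to 0.25) and Nsdhl (-0.14, -0.53 to 0.24), which reduce, oxidise and decarboxylate the ring system, did not pass. Without N_46 array 1 they were at 0.06, 0.14 and 0.10, so the negative sign of Nsdhl was that of 1 array.

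**Figure D2:**
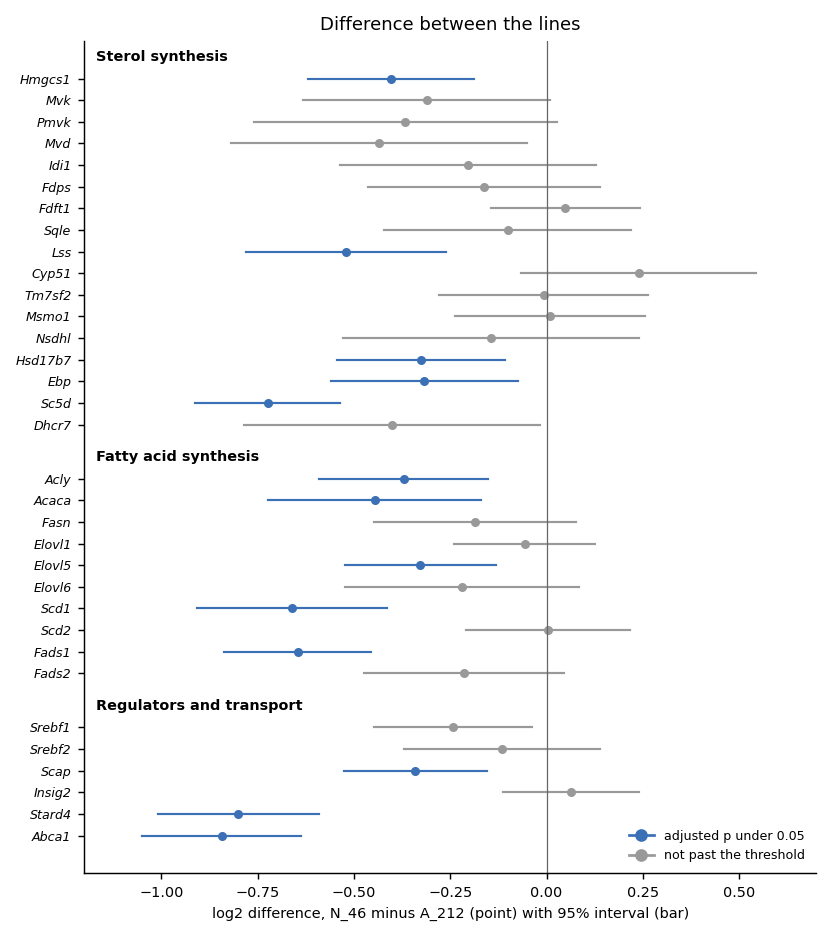
Log2 difference between the lines (points, N_46 minus A_212) with its 95% interval from limma (bars) for the 33 measured members, blue where the adjusted p was under 0.05. All 13 called genes lie left of 0, from -0.84 for Abca1 to -0.32 for Ebp, and Cyp51 is the rightmost point at 0.24.

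In fatty acid synthesis, the enzymes that supply and commit acetyl-CoA were called as higher in A_212 and the synthase itself was not called. ATP citrate lyase (Acly), which makes cytosolic acetyl-CoA from citrate for both pathways, had 0.14, 0.11 and 0.18 in A_212 and -0.46, -0.10 and -0.12 in N_46, a difference of -0.37 ± 0.10 (adjusted p = 0.0122). The lines did not overlap. Of its 5 probe sets 4 were called, at -0.59 to -0.25, and the fifth was at 0.05, so the value rose in size to -0.57 when only plain probe sets were used. Acetyl-CoA carboxylase (Acaca), which makes malonyl-CoA, had 0.35, 0.13 and 0.05 in A_212 and -0.54, -0.05 and -0.21 in N_46. Its difference of -0.45 ± 0.12 (adjusted p = 0.0157) became -0.36 and did not pass without A_212 array 1 (adjusted p = 0.059), the highest array. Fatty acid synthase (Fasn), which builds palmitate, had 0.02, -0.02 and 0.06 in A_212 against -0.47, 0.05 and -0.08 in N_46. The difference was -0.19 (95% interval -0.45 to 0.08, adjusted p = 0.247), or -0.03 without N_46 array 1. The intervals of Acly (-0.59 to -0.15) and Acaca (-0.72 to -0.17) overlapped that of Fasn. Acaca and Fasn were each read by 1 probe set, and the difference between the steps was not tested.

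Of the desaturases Scd1 and Fads1 were called, and of the elongases Elovl5. Scd1, the stearoyl-CoA desaturase that makes oleate, had values of 0.28, 0.38 and 0.25 in A_212 and -0.63, -0.20 and -0.24 in N_46. The difference was -0.66 ± 0.11 (adjusted p = 0.000793), a 1.58-fold difference with no overlap between the lines and both probe sets called (-0.83 and -0.49). Its close paralog Scd2, the main isoform of brain, had 0.06, -0.07 and -0.06 in A_212 and -0.22, 0.13 and 0.03 in N_46, a difference of 0.0031 (95% interval -0.21 to 0.22), or 0.10 without N_46 array 1. Of the 3 Scd2 probe sets, 1 was called as higher in N_46 (0.34) and the others were at -0.10 and -0.23. All 5 probe sets of these paralogs are of the plain type and the annotation gives each to 1 gene, though cross-hybridisation between close paralogs was not tested. The difference between the paralogs was not tested either.

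Fads1 and Fads2 insert the front-end double bonds of polyunsaturated fatty acids. Fads1 had 0.21, 0.37 and 0.30 in A_212 and -0.46, -0.21 and -0.39 in N_46, a difference of -0.65 ± 0.09 (adjusted p = 0.000165) with no overlap, read by 1 probe set. Fads2 had a difference of -0.22 (95% interval -0.47 to 0.04, adjusted p = 0.176), or -0.07 without N_46 array 1. Among the elongases, Elovl5, which lengthens polyunsaturated chains, was called at -0.33 ± 0.09 (adjusted p = 0.0131). Its call ended when array 1 of both lines was left out (adjusted p = 0.0622), as did that of Acaca, whose difference was then -0.22. Elovl6, which lengthens palmitate (-0.22, interval -0.52 to 0.08), and Elovl1, which makes very long chains (-0.06, -0.24 to 0.13), did not pass, and stood at -0.03 and 0.0081 without N_46 array 1.

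Genes that move cholesterol gave the largest differences among the members. Abca1, which passes cellular cholesterol to apolipoproteins, had 0.39, 0.56 and 0.31 in A_212 and -0.27, -0.46 and -0.53 in N_46. Unlike for most members, N_46 array 1 was the highest of its line here. The difference was -0.84 ± 0.09 (adjusted p = 4.16e-05), and all 3 probe sets were called (-1.06, -0.88 and -0.58). Stard4, a soluble protein that carries cholesterol between membranes, had 0.36, 0.37 and 0.40 in A_212 and -0.64, -0.30 and -0.34 in N_46. Its A_212 arrays were close together and far above every N_46 array, and the difference was -0.80 ± 0.09 (adjusted p = 6.84e-05), or -0.69 without N_46 array 1, with both probe sets called.

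Of the sensing machinery, Scap was called and the SREBP genes were not. Scap had 0.10, 0.27 and 0.14 in A_212 and -0.31, -0.10 and -0.11 in N_46, a difference of -0.34 ± 0.08 (adjusted p = 0.00794) with no overlap. Srebf1, the SREBP gene tied mainly to fatty acid synthesis, had 0.03, 0.32 and 0.03 in A_212 and -0.19, -0.12 and -0.03 in N_46. Its difference of -0.24 ± 0.09 did not pass (adjusted p = 0.06), but it passed without A_212 array 3 (adjusted p = 0.0491) and after scaling all arrays to one median (0.0387) or one 75th percentile (0.0419). Srebf2, the SREBP gene tied mainly to sterol synthesis, had 0.02, -0.02 and close to 0 in A_212 and -0.42, 0.05 and 0.01 in N_46, a difference of -0.12 (95% interval -0.37 to 0.14, adjusted p = 0.461). Its sign turned without N_46 array 1, to 0.03. Insig2, which retains Scap in the endoplasmic reticulum, differed by 0.06 (-0.11 to 0.24, adjusted p = 0.56), and N_46 array 1 was its highest value (0.17), without which the difference was 0.0083. These are transcript values and hold no information on cleavage of the SREBP proteins.

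Within the N_46 line the sterol enzymes were low together on 1 plate. N_46 array 1 was the lowest N_46 array for 17 of 17 sterol enzymes and 10 of 10 fatty acid enzymes, where over all genes it was the lowest for 47.5%. It lay at least 0.2 below the next array for 15 of the 17 and 7 of the 10, against 7.46% of all genes. On average it lay -0.31 from the mean of its line over the sterol enzymes and -0.23 over the fatty acid enzymes, where arrays 2 and 3 lay at 0.16 and 0.15 and at 0.16 and 0.07. The gap to the next array was largest for Mvd (0.73), Nsdhl (0.73) and Dhcr7 (0.69) and smallest among the sterol enzymes for Tm7sf2 and Sc5d (both 0.13). For 11 of the 17 sterol enzymes the SD between the N_46 arrays was above the 95th percentile of all genes, which was 0.21. The median SD of the sterol enzymes was 0.30 in N_46 and 0.12 in A_212, beside 0.08 and 0.10 over all genes.

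The A_212 line showed a smaller movement of the same enzymes. A_212 array 1 was the lowest of its line for 14 of 17 sterol enzymes (33.0% of all genes) and lay -0.13 from its line mean on average, against 0.06 for each of arrays 2 and 3. The fatty acid enzymes did not follow there: array 1 was the lowest for 4 of 10, and the mean deviations were between -0.02 and 0.02. On the same A_212 array, astrocyte, fibroblast and adipocyte markers lay at means of -0.12, -0.10 and -0.10 from the line mean. These means were about as low as that of the sterol enzymes. Array 1 was the lowest for 6 of 10, 6 of 14 and 3 of 6 of these markers. It was the lowest by at least 0.2 for 4 of 10, 4 of 14 and 1 of 6. By that measure it was the lowest for 6 of 17 sterol enzymes and 5.21% of all genes. Low values on A_212 array 1 were thus not particular to the sterol enzymes. Neuronal markers lay at -0.0087, oligodendrocyte markers at -0.06 and all genes at -0.02. Among regulators and transporters, N_46 array 1 was the lowest for 4 of 6, with a mean deviation of -0.08. It lay at least 0.2 below the next array for 3 of them, Srebf2 (0.43), Stard4 (0.30) and Scap (0.20). It did so for 11 of the 49 other lipid genes (22.4%), whose mean deviation was -0.04, since genes such as Vldlr were highest there. On N_46 array 1 the marker lists had mean deviations of 0.11 (fibroblast), 0.0079 (astrocyte), -0.05 (neuronal), -0.05 (adipocyte) and -0.06 (oligodendrocyte), and all genes of -0.02. The part of any handling difference between plates was not tested.

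Without N_46 array 1 the sterol median moved from -0.31 to -0.12, with 9 of 17 differences negative, whereas the fatty acid median moved from -0.27 to -0.16 and that of regulators and transporters from -0.29 to -0.24. The sterol calls without it were 3 higher in A_212 (Hmgcs1, Lss and Sc5d) and 1 higher in N_46 (Cyp51), and the 5 fatty acid and 3 regulator and transport calls were kept. With array 1 of both lines left out, chosen after seeing the data, 7 sterol enzymes were higher in A_212 and 1 in N_46. The sterol median was then -0.18, and 3 fatty acid enzymes were higher in A_212. In that refit 42.4% of the members and 35.0% of all genes were called.

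**Figure D3:**
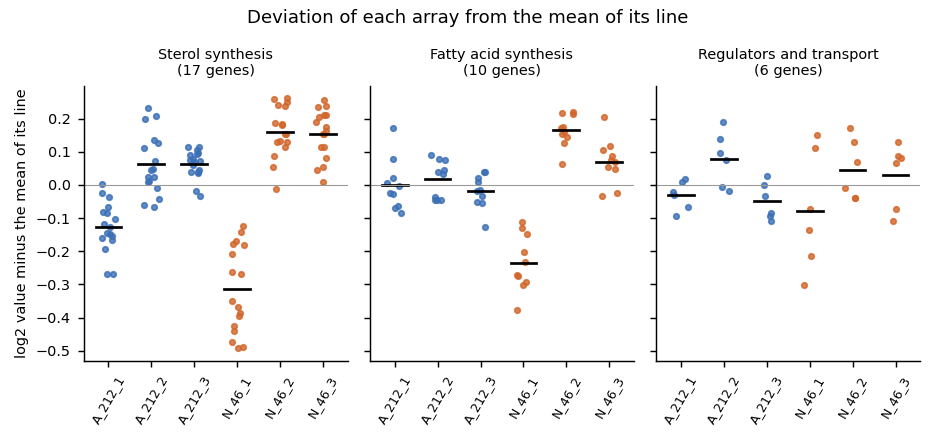
Deviation of each array from the mean of its own line (y axis, log2) for the sterol enzymes, fatty acid enzymes, and regulators and transporters, with 1 point per gene and a bar at the mean over genes. All 17 sterol enzymes and all 10 fatty acid enzymes lie below 0 on N_46 array 1, with means of -0.31 and -0.23, and the sterol enzymes have a mean of -0.13 on A_212 array 1.

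Probe sets of the same gene did not always agree, and 21 of the 33 members had several. Probe sets of both signs were found for 7 genes (Fdps, Fdft1, Cyp51, Acly, Elovl1, Scd2 and Insig2). Taken one by one, 27 of the 67 probe sets were called, 25 as higher in A_212 and 2 as higher in N_46, where 37.4% of all 20380 single-gene probe sets were called. The 2 exceptions were a probe set of Cyp51 (0.52) and one of Scd2 (0.34). No gene had called probe sets in both directions. For Lss and Cyp51 the spread between probe sets was largest, from -0.94 to -0.19 and from -0.20 to 0.52, and the cause of this spread was not tested.

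**Figure D4:**
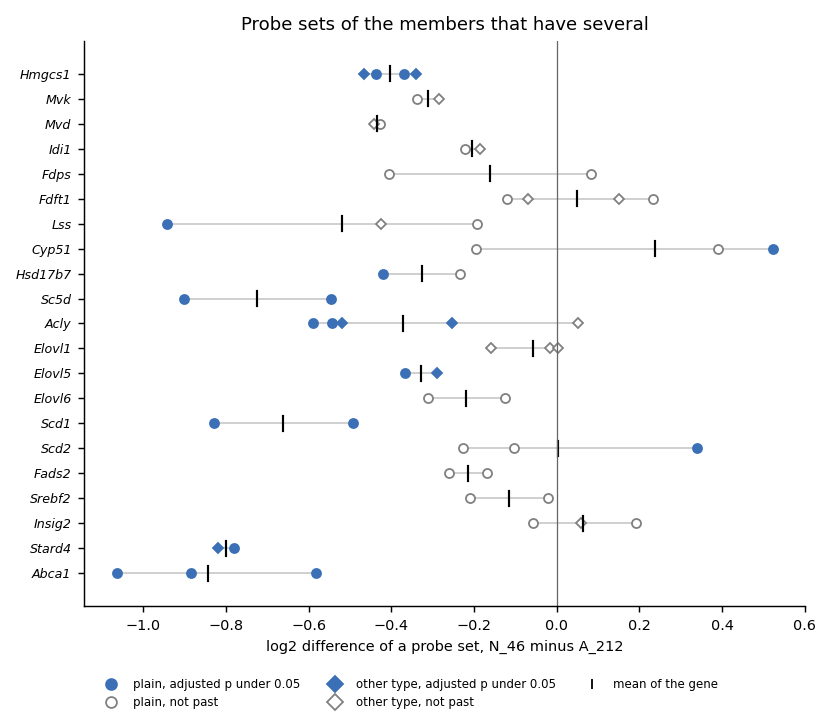
Log2 difference (x axis, N_46 minus A_212) of each probe set of the 21 members with several, filled where the adjusted p over all probe sets was under 0.05, as circles for plain probe sets and diamonds for types that can match several transcripts. A black tick marks the gene's mean, and the range is widest for Lss, Cyp51 and Acly.

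Because the sterol enzymes moved together, their promoters are shown for the motifs that SREBPs and their usual partner, the CCAAT-binding factor NF-Y, are known to bind. RefSeq promoter windows (assembly GRCm38.p6, 250 bases before to 50 after a gene's start) matched 26 of the 33 members. The searched letters were TCACNCCAC (a sterol regulatory element), TCACNCCA (the same without its last base) and CCAAT (the box bound by NF-Y). Also searched were the E-box CACGTG and a direct repeat bound by liver X receptors, which is AGGTCA, 4 free bases and the same letters again. Both strands were read and overlapping matches counted. The stretches below are the 150 bases before the start on the gene's strand, with CCAAT (or ATTGG, its other strand), the sterol regulatory element and the E-box in capitals. The first set holds sterol enzymes called as higher in A_212, at chr13:119690201-119690350 (plus strand), chr10:76531455-76531604 (plus) and chr9:42264301-42264450 (minus).
Hmgcs1: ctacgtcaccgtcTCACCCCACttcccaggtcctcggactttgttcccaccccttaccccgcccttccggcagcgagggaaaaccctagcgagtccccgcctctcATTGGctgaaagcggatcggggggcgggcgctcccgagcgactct
Lss: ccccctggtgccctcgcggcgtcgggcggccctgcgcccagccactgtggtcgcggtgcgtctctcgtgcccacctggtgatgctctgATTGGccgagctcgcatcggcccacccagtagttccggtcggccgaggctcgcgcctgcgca
Sc5d: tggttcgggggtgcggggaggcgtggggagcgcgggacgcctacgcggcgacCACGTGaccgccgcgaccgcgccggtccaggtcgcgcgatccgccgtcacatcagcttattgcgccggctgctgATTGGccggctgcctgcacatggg

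The next set holds sterol enzymes whose difference did not pass but which were low on N_46 array 1, at chr5:114444119-114444268 (plus strand), chr13:8885456-8885605 (plus) and chr5:4104698-4104847 (minus).
Mvk: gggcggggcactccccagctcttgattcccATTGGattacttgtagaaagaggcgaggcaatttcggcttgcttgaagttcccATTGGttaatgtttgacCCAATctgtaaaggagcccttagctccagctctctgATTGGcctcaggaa
Idi1: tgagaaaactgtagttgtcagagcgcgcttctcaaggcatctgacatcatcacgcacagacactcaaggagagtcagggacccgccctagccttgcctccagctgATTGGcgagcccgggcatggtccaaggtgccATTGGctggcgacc
Cyp51: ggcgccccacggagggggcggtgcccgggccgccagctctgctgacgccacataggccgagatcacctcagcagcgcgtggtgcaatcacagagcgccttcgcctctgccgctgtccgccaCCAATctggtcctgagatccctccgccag

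The last set holds Fasn, which was low on N_46 array 1, and Abca1, which was not, at chr11:120824548-120824697 (minus strand) and chr4:53159896-53160045 (minus).
Fasn: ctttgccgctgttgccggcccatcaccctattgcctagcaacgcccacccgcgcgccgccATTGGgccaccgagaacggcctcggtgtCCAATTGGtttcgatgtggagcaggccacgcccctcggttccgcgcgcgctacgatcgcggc
Abca1: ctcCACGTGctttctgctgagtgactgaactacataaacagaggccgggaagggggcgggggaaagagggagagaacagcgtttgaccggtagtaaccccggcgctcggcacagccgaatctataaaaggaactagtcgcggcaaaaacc

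All 14 sterol enzymes with a window held CCAAT on either strand, called or not, against 42.3% of the 9887 tested genes with a window and 37.4% of all 32851 windows. The box was held by 4 of 7 fatty acid genes (Acly, Fasn, Elovl1 and Elovl5) and by 3 of 5 regulators and transporters (Srebf1, Srebf2 and Insig2), and the windows of Abca1 and Scap had no match. In Hmgcs1 a box began 45 bases and the sterol regulatory element 137 bases before the start. That element in its full form was found for Hmgcs1 alone among the members (1.5% of tested genes and 1.24% of all windows). In the shorter form it was also found for Msmo1 and Srebf2 (4.73% of tested genes and 4.36% of all windows). The E-box was found for Hsd17b7, Sc5d, Dhcr7, Elovl5, Scap and Abca1 (10.8% of tested genes and 7.15% of all windows). The direct repeat was found for 0 members. Its exact letters were in only 5 of all 32851 windows (0.0152%) and in 0.0% of tested genes. So rare a string could hardly be met among the members, so this count does not tell whether they hold such an element. In Fasn, 2 of the 3 boxes overlap as CCAATTGG. A match is a description of letters in this window and no measure of binding. Only the letters given were searched, so variant forms of the elements were missed. A window without a match may still hold such an element.

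Other genes of lipid handling differed in both directions. Of 49 measured of 62 listed, 19 were higher in A_212, 7 were higher in N_46 and 23 did not pass, with a median of -0.0095. The share called was 53.1%, beside 39.2% of all genes (18.3% higher in A_212 and 20.9% higher in N_46). Higher in A_212 were Npc1, the lysosomal cholesterol exporter (-1.66 ± 0.15, adjusted p = 8.31e-06), Mylip, a ubiquitin ligase induced by liver X receptors that degrades lipoprotein receptors (-1.49 ± 0.07, adjusted p = 9.99e-08), and Hacd1, a dehydratase of fatty acid elongation (-1.25 ± 0.09). Acss2, which makes acetyl-CoA from acetate (-1.18), the NADPH-producing malic enzyme gene Me1 (-1.02) and the fatty acid-binding protein gene Fabp3 (-0.998) followed. Acss2 was low on array 1 of both lines, at 0.30, 0.85 and 0.73 in A_212 and -0.93, -0.43 and -0.30 in N_46. Higher in N_46 was above all Vldlr, a lipoprotein receptor gene, with -1.48, -0.98 and -0.85 in A_212 and 1.99, 0.95 and 0.92 in N_46 (2.39 ± 0.26, adjusted p = 3.7e-05). It had its highest value on N_46 array 1, and its plain probe sets alone gave 1.59. Next came the sterol hydroxylase gene Ch25h (0.58), Mid1ip1 (0.57), which activates acetyl-CoA carboxylase, malonyl-CoA decarboxylase (Mlycd, 0.38), Hacd2 (0.35) and the carboxylase isoform gene Acacb (0.33). Without A_212 array 1, A_212 array 2, N_46 array 2 or N_46 array 3 Acacb was not called, at 0.30 (adjusted p = 0.0881), 0.25 (0.117), 0.26 (0.117) and 0.35 (0.0515).

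Markers of cell types went both ways between the lines, and with centred values it cannot be read whether any is absent. Of 14 neuronal markers 2 were higher in N_46 and 3 in A_212, of 14 fibroblast markers 1 and 8, of 10 astrocyte markers 2 and 2, of 8 oligodendrocyte markers 0 and 2, and of 6 adipocyte markers 2 and 1. The list medians were 0.07, -0.37, 0.04, 0.06 and 0.10 in that order, and the part of cell identity in the lipid gene differences was not tested.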

How the data were processed

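RNA of 3 plates per line was measured on Affymetrix arrays. The deposited log2 values were made by the authors with RMA, per the submitters' processing notes, which give no version. The values are centred per probe set (median 0 over the 6 arrays within 1e-05) by a step that the sources used here do not describe, and quantile normalisation in RMA hides any difference in total RNA.

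Of 22690 probe sets, 20380 had 1 gene in the platform annotation, 691 several, 1555 none and 64 were controls. Through gene identifiers 20351 matched a RefSeq table of GRCm38.p6, with 0 symbols changed. Gene values are means of single-gene probe sets, 12393 genes in all. Lines were compared with limma 3.58.1 in R 4.3.3 (lmFit and eBayes, two-sided, Benjamini-Hochberg). An exact permutation test over 3 against 3 arrays cannot go below 0.1 and was not used.

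Samples were grouped by the line in the labels. Members, lists and tests were chosen with earlier results of these data known, and the motifs and the order of arrays within a line were added after the values were seen. Every measured member is named. Shown array by array by rule were members called at a log2 difference of at least 0.5 in size, the 3 largest sterol, 3 largest fatty acid and 2 largest regulator or transport differences, with others added to show each replicate. Of other lipid genes, up to 6 each way were named. On simulated data with 12393 genes, 50 were changed at each size. There limma recovered 44.0% of genes changed by 0.3, 88.0% by 0.5 and 100% by 1, with 13 false among 179 calls. In the real data 39.2% of genes were called. The median SD between N_46 arrays was 0.30 for the sterol enzymes and 0.08 over all genes, so these recoveries may not hold for the members.

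Alternatives were 2 scalings, a replicate block, array weights, each array left out, robust eBayes, plain probe sets, the probe set median and 2 thresholds. Tables and figures were made in Python 3.11.15 with matplotlib 3.10.9, pandas 2.3.3 and numpy 2.4.6.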

Additional observations from a re-analysis of the deposited data

How the results depend on the processing

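Of the 13 called members, 9 kept their call and direction in all of up to 14 refits (Hmgcs1, Lss, Sc5d, Acly, Scd1, Fads1, Scap, Stard4 and Abca1), Hsd17b7, Ebp, Acaca and Elovl5 lost it in at least 1, and 0 reversed. Of 20 members not called, 6 were called in at least 1 refit (Mvk, Pmvk, Mvd, Cyp51, Dhcr7 and Srebf1). The count of sterol enzymes called, 5, ranged from 3 to 7 when each array was left out, was 8 with array 1 of both lines left out, 3 at an adjusted p under 0.01 and 2 at a log2 difference of at least 0.5. With the replicate block it was 9, and the block moved no other count by over 1.5 times. Across all genes, same-numbered arrays of the lines did not deviate together (r = -0.03, -0.01 and 0.09). The sterol enzymes, however, were low on array 1 of both lines (mean deviations of -0.13 in A_212 and -0.31 in N_46). A correlation over all genes therefore cannot decide whether same-numbered plates were paired, and the labels give only the numbers. The count of fatty acid enzymes, 5, ranged from 4 to 5, was 3 with array 1 of both lines left out, and 2 at either stricter threshold. That of regulators and transporters, 3, ranged from 3 to 4, and that of other lipid genes, 26, from 23 to 28, with 16 at a log2 difference of at least 0.5. Over all genes 4853 were called, with 3903 to 5124 when an array was left out and 2062 at a log2 difference of at least 0.5. Setting arrays to the same median moved the share of all calls higher in N_46 to 48.1%. The member calls were then 15 (45.5%, beside 38.4% of all genes), all higher in A_212. Small differences limit the calls at 3 arrays per line.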
